A study of Mus musculus with 6 samples.

Results

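The chemokine system of the marrow was followed through 43 genes, 28 ligands and 15 receptors, out of 19938 genes that had a named probe set on the array. The genes belong to the chemokine ligand and receptor families and were matched by symbol. Each had to be the only symbol of its probe set, and the brightest probe set by mean over the 6 arrays was used where a gene had several, which applied to Ccl25. All 43 genes were found.

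RNA of whole bone marrow cells from 6 mice was hybridised to Affymetrix mouse whole-transcript arrays, 1 mouse per array. Donor LSK cells (a marrow fraction rich in haematopoietic stem and progenitor cells) with the CD45.2+ surface form had been transduced with Meis1 together with HoxA9 linked to GFP, and had been given to lethally irradiated CD45.1+ recipients. The HoxA9 was the wild-type form in 3 mice (genotype HoxA9wt/Meis1) and the form labelled HoxA9AA in 3 mice (genotype HoxA9AA/Meis1), so that both groups carried Meis1, GFP and the transplant, and all marrows were taken when disease set in. The labels give neither the age or sex of the mice, nor the promoter that drives the introduced genes, nor how many recipient cells remained. The marrow was not sorted, so that fewer cells of a type and less RNA per cell cannot be told apart in any value below.

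Chemokines are small secreted proteins that direct the movement of cells, and they are grouped into CC, CXC, CX3C and C families by the spacing of their first cysteines. They act on membrane receptors that are coupled to G proteins, and many ligands share receptors. In marrow, Cxcl12 from stromal cells holds stem cells and neutrophil precursors in place through Cxcr4. Ccr2 lets monocytes leave for the blood, and Cxcr2 does the same for neutrophils.

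Expression values are log2 intensities, so that 1 unit means a 2-fold change, and a difference below 0 means a lower mean in HoxA9AA/Meis1 than in HoxA9wt/Meis1. A gene was counted as above background on an array when it exceeded the 95th percentile of 1027 olfactory receptor genes, which lay between 6.52 and 6.72 on the 6 arrays, while the median of all probe sets lay between 6.73 and 6.85. A value under this limit may still hold some signal, and because probes differ in brightness, levels of different genes were not ranked. The general blood cell genes Ptprc, Spi1, Coro1a and Laptm5 were above background on all 6 arrays.

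A part of the chemokine system was detected, and no member passed the test between the groups. Of the 43 genes 17 were above background on all 6 arrays, 9 on some arrays and 17 on none, whereas 52.9% of all genes were above it on all 6 and 36.1% on none. With limma, 0 of the 43 members and 0 of all 19938 genes (0%) had an adjusted p under 0.05. Without HoxA9AA replicate 2, 48 genes passed (17 higher, 0.0853%, and 31 lower, 0.155%), and 0 members were among them. At an unadjusted p under 0.05 there was 1 lower member, Ccr1, and 0 higher members, where 2.59% of all genes were lower and 4.15% higher in that way. The means were lower in HoxA9AA/Meis1 for 30 members, higher for 12 and equal for Cxcl5, and the median difference was −0.09, against 46.4% lower and a median of 0.01 over all genes. Of the 17 members above background on no array, 12 had a lower mean. Of the 17 above it on all 6 arrays, 11 had a lower mean, against 4437 of 10541 such genes. The 11 include Ccl25, whose 2 probe sets went opposite ways. The 3 values of the groups did not overlap for 4 members, Ccl2, Ccl12, Ccr1 and Ccr2. All 4 were lower in HoxA9AA/Meis1, where 4.8% of all genes were lower and 6.6% higher without overlap. The nearest mice of the 2 groups were 0.28 apart for Ccl2, 0.03 for Ccl12 and 0.01 for both Ccr1 and Ccr2. Ccl12 was moreover under the background limit on all 6 arrays.

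**Figure D1:**
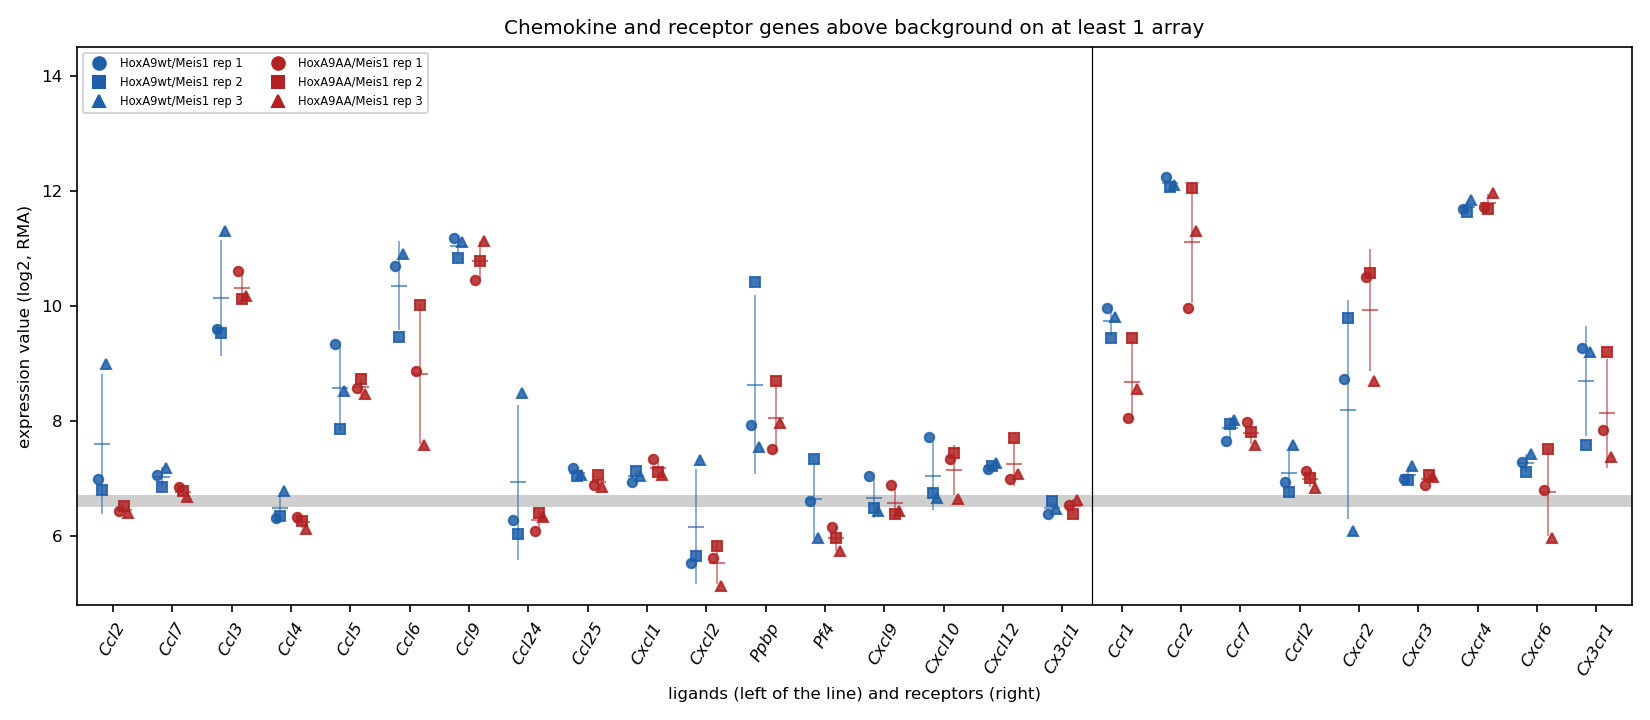
Expression values (log2, vertical axis) of the 26 members above background on at least 1 array, 17 ligands on the left and 9 receptors on the right; symbols are single mice, short horizontal lines with bars the group mean ± SD (n = 3), and the grey band the range of the background limit over the 6 arrays (6.52 to 6.72). HoxA9wt replicate 3 stands high for Ccl2, Ccl3, Ccl24 and Cxcl2, and HoxA9AA replicates 1 and 3 stand low for Ccr1, Ccr2 and Ccl6.

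Single mice stood out in many of these genes. Of the 26 members above background on at least 1 array, HoxA9wt replicate 3 had the highest value for 10 and HoxA9AA replicate 3 the lowest for 11. Ccl4, Ccl24 and Cxcl2 were among the 26 only through HoxA9wt replicate 3, so that their part of the 10 was fixed by the selection. HoxA9AA replicate 3 was lowest, ties included, for 15 of the 43 members and for 4141 of all 19938 genes. Over all 43 members HoxA9wt replicate 3 was highest for 14, or 32.6%, against 11.8% of all genes. Without this mouse the median difference of the members was −0.03. A difference of at least 1 in size was seen for 1 higher member (Cxcr2) and 4 lower members (Ccl6, Ccl2, Ccr1 and Ccr2), where 0.426% of all genes were higher and 0.752% lower by as much. A difference of at least 0.5 in size was seen for 11 of the 26 members, 10 lower and 1 higher (Cxcr2). In 9 of these 11, HoxA9AA replicate 2 was the HoxA9AA mouse closest to the HoxA9wt mean, though for Ccl2 the 3 mice hardly differed. The same was true of 78.5% of the 1189 genes with such a difference that were above background on at least 1 array, so that the count is near that over all genes. The SD was larger among the HoxA9AA mice for 19 of the 43 members, or 44.2%, against 70.8% of all genes.

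**Figure D2:**
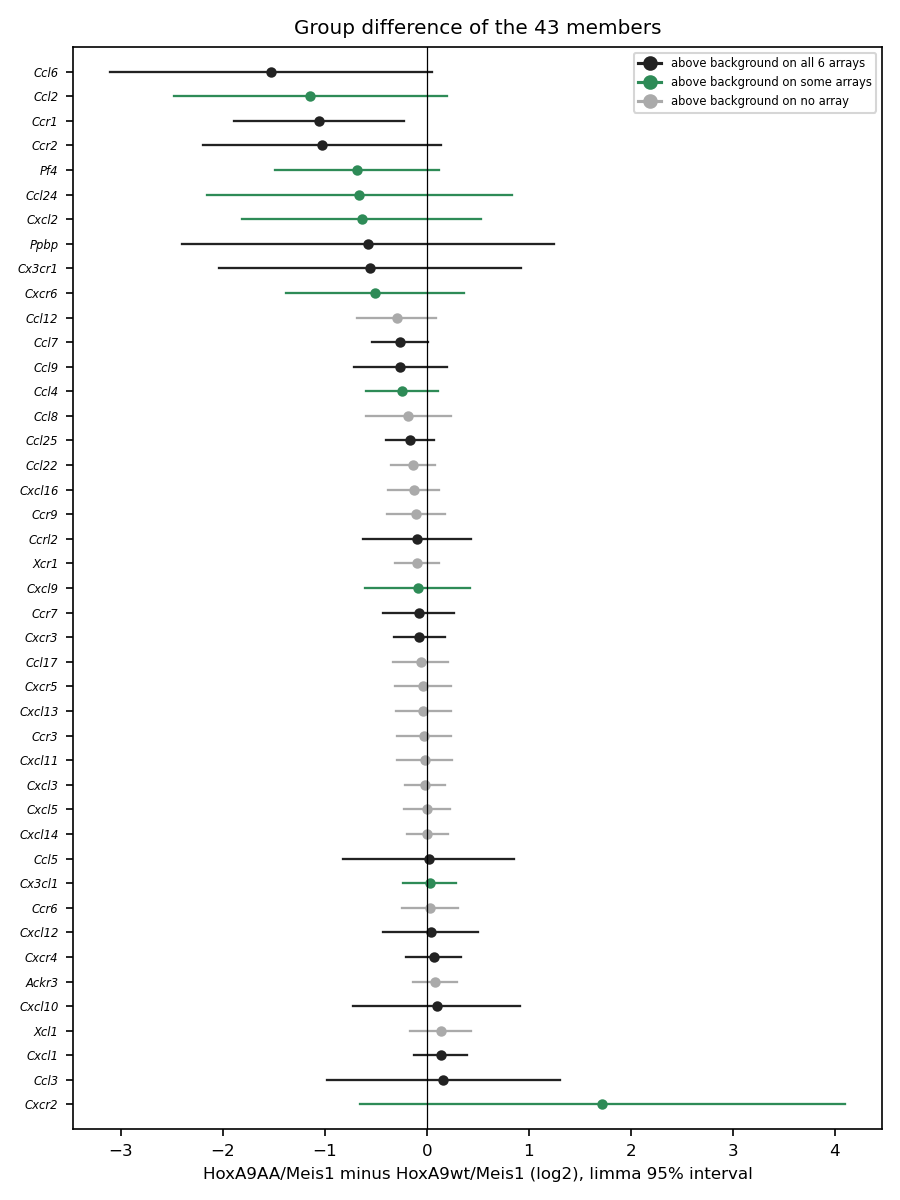
Difference between the groups (HoxA9AA/Meis1 minus HoxA9wt/Meis1, log2, horizontal axis) of all 43 members with its 95% interval from limma (n = 3 mice per group), coloured by whether the gene was above background on all 6, on some or on 0 arrays. The interval leaves out 0 for Ccr1 alone (−1.89 to −0.22), and that gene did not pass the adjustment over all genes.

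Ccr2, the receptor by which monocytes leave the marrow, was even in the HoxA9wt mice and uneven in the HoxA9AA mice. It measured 12.25, 12.06 and 12.10 in HoxA9wt replicates 1, 2 and 3. It measured 9.97, 12.05 and 11.30 in HoxA9AA replicates 1, 2 and 3. The groups were parted by 0.01 only, since HoxA9AA replicate 2 stood next to the HoxA9wt mice while replicate 1 was far below them and replicate 3 between. The SD was 0.10 in HoxA9wt/Meis1 and 1.05 in HoxA9AA/Meis1. The difference was −1.03 ± 0.49 (SE, n = 3 per group; limma, adjusted p = 0.734), with a 95% interval of −2.20 to 0.14. It was −0.46 without HoxA9AA replicate 1 and −1.50 without HoxA9AA replicate 2 (limma, adjusted p = 0.170).

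Ccr1, a receptor of monocytes and neutrophils for Ccl3, Ccl5, Ccl6, Ccl7 and Ccl9, was low in the same HoxA9AA mice. It measured 9.96, 9.45 and 9.81 in the HoxA9wt replicates and 8.05, 9.44 and 8.56 in the HoxA9AA replicates. HoxA9AA replicate 2 was again level with the HoxA9wt mice, 0.01 under the lowest of them, and replicates 1 and 3 were lower. The difference was −1.06 ± 0.35 (SE; limma, unadjusted p = 0.0208, adjusted p = 0.731). It was −1.43 without HoxA9AA replicate 2 (limma, adjusted p = 0.0807) and −0.74 without HoxA9AA replicate 1.

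Averaged over the markers, monocyte and macrophage genes were low in the same mice as both receptors. Of the 8 measured monocyte and macrophage markers 8 had a lower mean in HoxA9AA/Meis1, 0 passed the test, and the median difference was −0.58. Averaged over these markers, the HoxA9AA mice lay at −0.87, −0.08 and −0.61 relative to the HoxA9wt mean, in the order of replicates 1, 2 and 3, and the HoxA9wt mice at 0.16, −0.20 and 0.04. Csf1r, the receptor for the monocyte growth factor M-CSF, measured 10.31, 9.58 and 10.13 in the HoxA9wt mice and 8.81, 10.19 and 9.28 in the HoxA9AA mice. Ms4a6c, a membrane protein gene of monocytes, measured 11.70, 11.55 and 11.46 against 9.88, 11.61 and 10.89. Both markers were therefore lowest in HoxA9AA replicate 1, the mouse with the lowest Ccr1 and Ccr2. Adgre1, F13a1, Cd68 and Fcgr1 were also lowest in that mouse. Cd14 and Lyz2 were instead lowest in HoxA9AA replicate 3, at 7.27 and 11.59. In HoxA9AA replicate 3, however, F13a1 (11.95) and Fcgr1 (6.52) lay within the HoxA9wt range. Cd68 (11.59 against 11.65 to 11.87) and Adgre1 (10.29 against 10.45 to 11.21) lay a little under it. As given above, HoxA9AA replicate 2 was closest to the HoxA9wt mean in 78.5% of the 1189 genes with larger differences as well. The part of these markers in the receptor values was not tested.

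The ligands of Ccr2 were near background, and Ccl2 was high in 1 mouse. Ccl2, the main attractant of monocytes, measured 7.00, 6.80 and 9.0 in the HoxA9wt replicates and 6.44, 6.52 and 6.41 in the HoxA9AA replicates. It was above background on the 3 HoxA9wt arrays and on 0 of the HoxA9AA arrays. The margins were small, however, with limits of 6.54 for HoxA9AA replicate 2 and 6.65 for HoxA9wt replicate 2. The groups did not overlap, but the nearest mice were 0.28 apart and HoxA9wt replicate 3 stood alone. The difference was −1.14 ± 0.56 (SE; limma, adjusted p = 0.741). It was −0.44 without HoxA9wt replicate 3 (limma, unadjusted p = 0.0109, adjusted p = 0.998). Without any 1 of the other 5 mice it was between −1.54 and −1.12.

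Ccl7, another attractant of monocytes, measured 7.07, 6.85 and 7.19 in the HoxA9wt mice and 6.85, 6.79 and 6.68 in the HoxA9AA mice. All 6 values were just above the background limit, and the groups touched at 6.85. The difference was −0.26 ± 0.11 (SE; limma, adjusted p = 0.731). Ccl12 and Ccl8, close relatives of Ccl2, were under the limit on all 6 arrays. Ccl12 was highest in HoxA9wt replicate 3, at 5.73 against 5.04 to 5.25 in the other 5 mice, and its groups were 0.03 apart.

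The ligands of Ccr1 were above background in every mouse, and Ccl6 had the largest lower difference of the 43 members. Ccl6 is a CC chemokine of rodents made by myeloid cells. It measured 10.70, 9.47 and 10.90 in the HoxA9wt mice and 8.87, 10.02 and 7.59 in the HoxA9AA mice. The groups overlapped, because HoxA9AA replicate 2 lay above HoxA9wt replicate 2, while HoxA9AA replicate 3 was lowest. The difference was −1.53 ± 0.66 (SE; limma, adjusted p = 0.731), or a 2.89-fold lower mean on the log2 scale, with a 95% interval of −3.11 to 0.05. It was −2.13 without HoxA9AA replicate 2 (limma, adjusted p = 0.182) and −0.91 without HoxA9AA replicate 3.

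Ccl9, another CC chemokine of rodent myeloid cells, varied less between the mice. It measured 11.18, 10.84 and 11.12 against 10.45, 10.78 and 11.13, so that HoxA9AA replicate 3, the mouse with the least Ccl6, lay within the HoxA9wt range. The difference was −0.26 ± 0.19 (SE; limma, adjusted p = 0.835). Ccl6 and Ccl9 are neighbours on chromosome 11.

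Ccl3, also called MIP-1 alpha, was highest in HoxA9wt replicate 3. It measured 9.60, 9.53 and 11.30 in the HoxA9wt mice and 10.61, 10.13 and 10.18 in the HoxA9AA mice. The 3 HoxA9AA mice lay between HoxA9wt replicate 3 and the other HoxA9wt mice, and the difference was 0.16 ± 0.48 (SE; limma, adjusted p = 0.977). Without HoxA9wt replicate 3 it was 0.74. Ccl4, the neighbour and close relative of Ccl3, measured 6.79 in HoxA9wt replicate 3, its 1 value above background, and 6.13 to 6.35 in the other 5 mice.

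Ccl5, a chemokine of T cells and of cells exposed to interferon, measured 9.34, 7.86 and 8.53 in the HoxA9wt mice. The HoxA9AA mice lay within this range, at 8.58, 8.74 and 8.47. Its difference of 0.02 ± 0.35 (SE; limma, adjusted p = 0.994) has a 95% interval of −0.82 to 0.86, so that the mice give little hold on its size or sign.

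Cxcr2, the receptor by which neutrophils are called from the marrow, had the largest difference of the members in size and the only large one towards higher values. It measured 8.73, 9.79 and 6.09 in HoxA9wt replicates 1, 2 and 3 and 10.51, 10.57 and 8.70 in HoxA9AA replicates 1, 2 and 3. HoxA9wt replicate 3 was under the background limit and far below the other 5 mice, and HoxA9AA replicate 3 lay level with HoxA9wt replicate 1. The difference was 1.72 ± 0.99 (SE; limma, adjusted p = 0.783), with a 95% interval of −0.66 to 4.10. It was 0.67 without HoxA9wt replicate 3 and 2.52 without HoxA9wt replicate 2.

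Neutrophil genes had the same low mouse. Averaged over 10 measured neutrophil markers, HoxA9wt replicate 3 lay at −1.70 relative to the HoxA9wt mean, HoxA9wt replicates 1 and 2 at 0.63 and 1.06, and the HoxA9AA mice at 1.31, 1.36 and 0.08. Of these markers 9 had a higher mean in HoxA9AA/Meis1 and 0 passed the test. Ly6g, the surface protein that marks mouse neutrophils, measured 8.37, 7.63 and 5.64 against 8.98, 9.85 and 7.52. Retnlg, a resistin-like gene of mature neutrophils, measured 10.58, 9.93 and 6.34 against 11.14, 11.12 and 10.13. Cxcr2, Ly6g and Retnlg were all lowest in HoxA9wt replicate 3, and the part of neutrophil number in the Cxcr2 values was not tested. Cxcr1, the related receptor that stood outside the 43 genes, was above background in HoxA9AA replicates 1 and 2 only, at 6.85 and 6.75 against 6.30 to 6.37 in the other 4 mice.

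**Figure D3:**
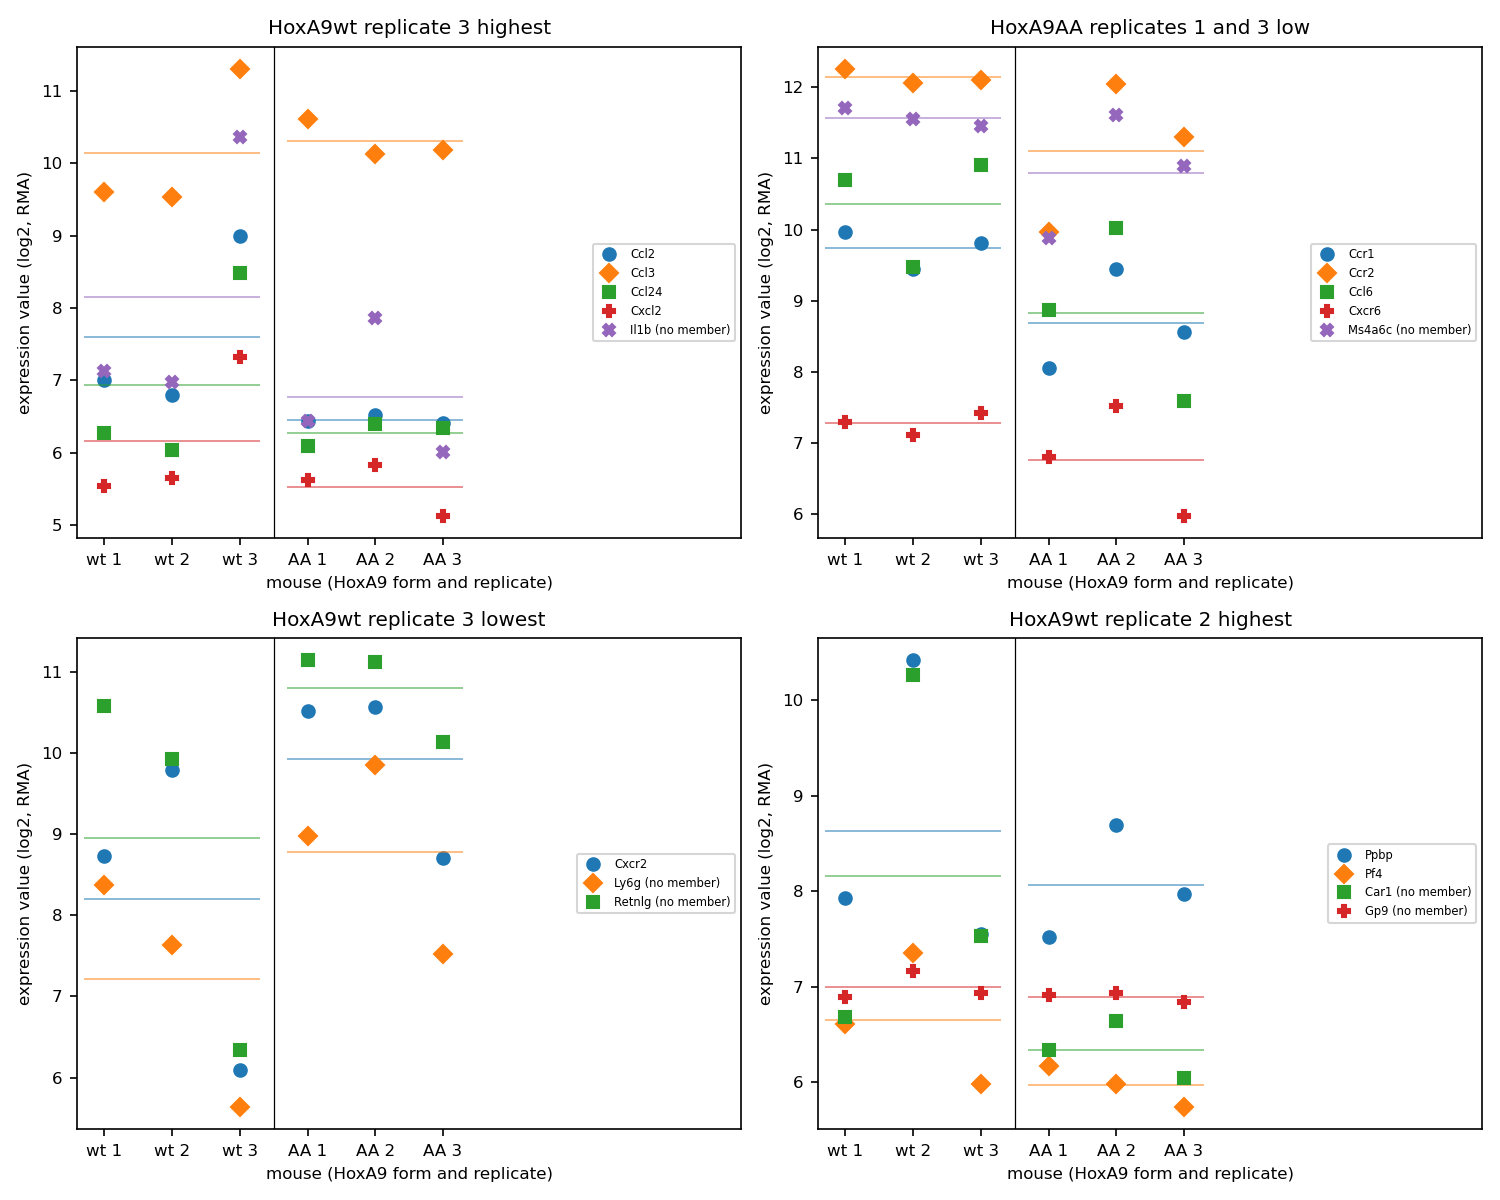
Expression values (log2, vertical axis) in each of the 6 mice (horizontal axis) for members and 6 genes outside the member list, grouped by the mouse that stands apart; lines are the group means (n = 3). HoxA9wt replicate 3 is highest for Ccl2 (9.0), Ccl3, Ccl24, Cxcl2 and Il1b and lowest for Cxcr2 (6.09), Ly6g and Retnlg, HoxA9AA replicates 1 and 3 are low for Ccr1, Ccr2, Ccl6, Cxcr6 and Ms4a6c, and HoxA9wt replicate 2 is highest for Ppbp (10.42), Pf4, Car1 and Gp9. Gp9 is 1 of 6 measured platelet markers, of which 3 are highest in HoxA9wt replicate 2, 2 in HoxA9AA replicate 1 and 1 in HoxA9AA replicate 3.

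Neighbouring ligands of Cxcr2 on chromosome 5 share a promoter motif. The 250 bases before the start of Cxcl1, Cxcl2 and Cxcl3 are shown because these neighbours carry the same letters and yet Cxcl2 alone was high in 1 mouse. The sequences are from RefSeq on build GRCm38.p6, all on the plus strand, at chr5:90890995-90891244 for Cxcl1, chr5:90903649-90903898 for Cxcl2 and chr5:90785851-90786100 for Cxcl3. Capitals mark each match to GGGNNNTTC on either strand, a short form of the site bound by NF-kB, and overlapping matches are run together.

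Cxcl1: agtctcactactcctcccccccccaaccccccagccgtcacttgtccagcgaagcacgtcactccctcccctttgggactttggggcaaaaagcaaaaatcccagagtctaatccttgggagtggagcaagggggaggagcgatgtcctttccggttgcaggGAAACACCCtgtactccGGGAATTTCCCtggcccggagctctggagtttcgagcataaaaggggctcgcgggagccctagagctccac
Cxcl2: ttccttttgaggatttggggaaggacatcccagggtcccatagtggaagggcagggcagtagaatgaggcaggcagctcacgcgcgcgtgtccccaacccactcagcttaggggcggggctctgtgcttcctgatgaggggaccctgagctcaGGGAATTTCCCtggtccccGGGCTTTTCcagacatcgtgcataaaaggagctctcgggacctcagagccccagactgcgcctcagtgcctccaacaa
Cxcl3: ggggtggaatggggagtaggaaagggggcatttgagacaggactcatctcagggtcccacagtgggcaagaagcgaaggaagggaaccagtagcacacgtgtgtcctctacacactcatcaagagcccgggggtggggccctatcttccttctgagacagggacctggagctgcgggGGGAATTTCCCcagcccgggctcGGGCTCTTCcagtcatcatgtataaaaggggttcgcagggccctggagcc

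All 3 windows hold the run GGGAATTTCCC, in which the match is read on both strands, and Cxcl1, Cxcl2 and Cxcl3 each have a further match in this stretch. The motif occurs in 14.0% of 32851 RefSeq promoter windows (250 bases before and 50 after the start). It occurs in 37.8% of the 37 windows found for 33 of the members, among them Cxcl9 and Cxcl10. Ccl2, Ccl4, Ccl5, Ccl7, Ccl24, Ccr7, Cxcl5, Cxcl11, Cxcl16 and Cxcr5 were not in the table. A match to these letters does not show that a factor binds there.

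Cxcl2, an attractant of neutrophils that macrophages release quickly, measured 5.54, 5.65 and 7.32 in the HoxA9wt mice and 5.63, 5.83 and 5.13 in the HoxA9AA mice. HoxA9wt replicate 3 was the 1 mouse above background. The difference of −0.64 ± 0.49 (SE; limma, adjusted p = 0.843) was −0.07 without that mouse. Cxcl1, which acts on the same receptor, measured 6.95, 7.13 and 7.05 against 7.35, 7.12 and 7.07, with HoxA9wt replicate 3 in the middle of its group and a difference of 0.14 ± 0.11 (SE; limma, adjusted p = 0.854). Cxcl3 lay between 5.70 and 5.83 and Cxcl5 between 5.29 and 5.50, both under the limit on all 6 arrays.

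Of 12 measured inducers of chemokines (NF-kB subunits and inhibitors, interferon factors and cytokines), 6 were highest in HoxA9wt replicate 3, as were 11.8% of all genes. Of the other 6, 3 were highest in HoxA9AA replicate 1, 2 in HoxA9AA replicate 3 and 1 in HoxA9wt replicate 1. Among those highest in HoxA9wt replicate 3 was Il6, named after its values were seen, which was under the limit on all 6 arrays (3.56 to 3.84). Il1b, which encodes interleukin 1 beta, measured 7.13, 6.98 and 10.37 in the HoxA9wt mice and 6.44, 7.87 and 6.01 in the HoxA9AA mice. Tnf, named after its values were seen, measured 7.89, 7.39 and 8.40 against 7.59, 7.55 and 7.61. Of these 12 inducers 5 had a higher and 7 a lower mean in HoxA9AA/Meis1, and 0 passed the test. Rela, the main activating subunit of NF-kB, had a difference of 0.31 ± 0.14 and Irf1 one of 0.62 ± 0.24 (SE; limma, adjusted p = 0.731 for each), both towards higher values in HoxA9AA/Meis1.

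The platelet chemokines were high in another mouse. Ppbp, which is stored in platelets and cut to a ligand of Cxcr2, measured 7.93, 10.42 and 7.55 in the HoxA9wt mice and 7.52, 8.69 and 7.97 in the HoxA9AA mice. Pf4, or platelet factor 4, measured 6.61, 7.35 and 5.98 against 6.17, 5.98 and 5.74. HoxA9wt replicate 2 was the highest for both. The differences were −0.57 ± 0.76 for Ppbp and −0.68 ± 0.33 for Pf4 (SE; limma, adjusted p = 0.931 and 0.741), and without HoxA9wt replicate 2 they were 0.32 and −0.33.

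Averaged over 6 measured megakaryocyte and platelet markers, HoxA9wt replicate 2 lay at 0.14 relative to the HoxA9wt mean and the other 5 mice between −0.15 and 0.04. Gp9, a subunit of the platelet receptor for von Willebrand factor, measured 7.16 there and 6.84 to 6.93 elsewhere, but only 3 of the 6 markers were highest in this mouse, and 2 were highest in HoxA9AA replicate 1 and 1 in HoxA9AA replicate 3. Red cell genes were high in the same mouse, with an average over 5 measured erythroid markers of 0.94 in HoxA9wt replicate 2 against −0.85 to −0.28 in the other mice, and Car1, a carbonic anhydrase of early red cells, at 10.27 against 6.04 to 7.53. The part of these cells in the Ppbp and Pf4 values was not tested.

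Cxcr3 and its interferon-induced ligands stood close to background. Cxcr3, a receptor of activated T and NK cells, measured 7.00, 6.98 and 7.23 in the HoxA9wt mice and 6.90, 7.06 and 7.03 in the HoxA9AA mice, a difference of −0.07 ± 0.10 (SE; limma, adjusted p = 0.938). Cxcl10 measured 7.73, 6.75 and 6.66 against 7.35, 7.44 and 6.65, so that 1 HoxA9wt mouse and 2 HoxA9AA mice were high. Cxcl9 measured 7.05, 6.50 and 6.44 against 6.90, 6.38 and 6.44, and was above background in HoxA9wt replicate 1 and HoxA9AA replicate 1. The differences were 0.10 ± 0.34 for Cxcl10 and −0.09 ± 0.21 for Cxcl9 (SE; limma, adjusted p = 0.984 and 0.972). Cxcl11 lay under the limit on all 6 arrays, between 5.91 and 6.22.

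Irf7, an interferon factor named after its values were seen, measured 7.19, 6.72 and 6.74 in the HoxA9wt mice and 6.99, 6.89 and 6.72 in the HoxA9AA mice. Its 3 highest mice were thus the 3 highest of Cxcl10, though all its values lay close to the background limit. Irf1, another interferon factor, measured 7.51, 6.96 and 7.33 against 8.0, 7.43 and 8.24. It was highest in HoxA9AA replicate 3, the mouse with the lowest Cxcl10, and the part of either factor was not tested. The 250 bases before the starts of Cxcl9 and Cxcl10 are shown because both were highest in HoxA9wt replicate 1. They come from RefSeq on build GRCm38.p6, both on the minus strand and written in the direction of transcription, at chr5:92328080-92328329 for Cxcl9 and chr5:92348890-92349139 for Cxcl10. Capitals mark matches on either strand to GAAANNGAA, a short form of the interferon-stimulated response element, to GGGNNNTTC as above, and to AGATAA, the site of GATA factors, which Cxcl10 holds close to its start.

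Cxcl9: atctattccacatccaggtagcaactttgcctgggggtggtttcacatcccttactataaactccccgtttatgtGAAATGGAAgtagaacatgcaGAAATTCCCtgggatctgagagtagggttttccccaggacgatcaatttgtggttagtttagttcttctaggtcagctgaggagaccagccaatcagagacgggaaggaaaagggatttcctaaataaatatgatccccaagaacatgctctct
Cxcl10: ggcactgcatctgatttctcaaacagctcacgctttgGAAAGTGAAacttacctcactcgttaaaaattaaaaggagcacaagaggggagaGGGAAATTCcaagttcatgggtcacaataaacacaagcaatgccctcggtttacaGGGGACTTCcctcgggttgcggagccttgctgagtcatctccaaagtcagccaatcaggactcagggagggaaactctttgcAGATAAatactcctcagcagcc

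Both windows hold the interferon letters, as GAAAGTGAA in Cxcl10 and GAAATGGAA in Cxcl9, followed downstream by the NF-kB letters. The interferon motif occurs in 8.6% of all promoter windows and in 13.5% of the 37 windows of members, which also include those of Ccl3, Ccr2 and Cxcl14. AGATAA occurs in 11.2% of all windows and in 21.6% of those of members, and GAGGAAGT, a site of the myeloid factor PU.1, in 3.2% and 5.4%.

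For Cxcr4 and Cxcl12, which hold blood-forming cells in the marrow, the groups overlapped and no difference was detectable. Cxcr4 measured 11.69, 11.64 and 11.84 in the HoxA9wt mice and 11.72, 11.69 and 11.97 in the HoxA9AA mice. The difference was 0.07 ± 0.11 (SE; limma, adjusted p = 0.946), with a 95% interval of −0.20 to 0.34. Cxcl12 measured 7.17, 7.23 and 7.28 against 7.00, 7.71 and 7.08. HoxA9AA replicate 2 was the highest, and the difference was 0.04 ± 0.19 (SE; limma, adjusted p = 0.991). Ackr3, which takes up Cxcl12 without G protein signalling, lay between 5.77 and 5.99, under the limit on all 6 arrays. Lepr, a marker of the stromal cells that make Cxcl12, was also highest in HoxA9AA replicate 2, at 6.35 against 5.88 to 6.10, and under the limit on all 6 arrays. Averaged over 11 measured stromal and endothelial markers, HoxA9AA replicate 1 was highest at 0.25 and HoxA9AA replicate 2 lay at 0.07, and 5 of the 11 were under the limit on all 6 arrays. The part of stromal cells in the Cxcl12 values was not tested.

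Cx3cr1 and Cxcr6 varied between mice within both groups or within 1. Cx3cr1, a receptor of monocytes that patrol vessels and of their precursors, measured 9.28, 7.59 and 9.21 in the HoxA9wt mice and 7.84, 9.20 and 7.37 in the HoxA9AA mice. HoxA9wt replicate 2 and HoxA9AA replicates 1 and 3 were low, so that the groups overlapped widely, and the difference was −0.56 ± 0.62 (SE; limma, adjusted p = 0.908). Leaving out HoxA9wt replicate 2 gave −1.11, leaving out HoxA9AA replicate 2 gave −1.09, and leaving out HoxA9AA replicate 3 gave −0.17. Cxcr6 measured 7.29, 7.12 and 7.43 against 6.81, 7.52 and 5.98, under the limit in HoxA9AA replicate 3 alone. Its difference of −0.51 ± 0.36 (SE; limma, adjusted p = 0.827) was −0.12 without that mouse. Cx3cl1 and Cxcl16, the ligands, lay between 6.38 and 6.63 and between 5.63 and 5.96. Cx3cl1 was above the limit in HoxA9AA replicate 3 alone.

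Ccr7, Ccrl2, Ccl25 and Ccl24 complete the members above background on some array. Ccr7, which leads dendritic and T cells to lymph nodes, measured 7.66, 7.95 and 8.02 against 7.98, 7.82 and 7.59, with overlapping groups and a difference of −0.08 ± 0.14 (SE; limma, adjusted p = 0.958). Ccrl2, a receptor that binds chemerin and does not signal by itself, measured 6.94, 6.77 and 7.59 against 7.14, 7.02 and 6.84. It was highest in HoxA9wt replicate 3, and its difference of −0.10 ± 0.22 (SE; limma, adjusted p = 0.969) was 0.15 without that mouse. Ccl24, an attractant of eosinophils made by macrophages, measured 6.28, 6.04 and 8.49 against 6.09, 6.40 and 6.34, above background in HoxA9wt replicate 3 alone. Its difference was −0.66 ± 0.62 (SE; limma, adjusted p = 0.888), and 0.12 without that mouse.

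Ccl25, a ligand of thymus and gut that acts on Ccr9, had 2 probe sets that went opposite ways. The brighter measured 7.18, 7.05 and 7.07 in the HoxA9wt mice and 6.89, 7.07 and 6.85 in the HoxA9AA mice, a difference of −0.16 ± 0.10 (SE; limma, adjusted p = 0.790). The dimmer measured 6.79, 6.80 and 6.79 against 6.92, 6.89 and 7.11, a difference of 0.18. No direction can therefore be given for this gene.

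Besides Ccl12, 16 members were under the limit on all 6 arrays and lay between 4.93 and 6.63. They include Ccl17 and Ccl22, by which dendritic cells attract T cells, the B cell attractant Cxcl13 with its receptor Cxcr5, and Xcl1 with its receptor Xcr1, which marks cross-presenting dendritic cells. They also include the lymphocyte receptors Ccr6 and Ccr9, the eosinophil receptor Ccr3, and Cxcl14. Their differences had sizes of at most 0.18, none with an unadjusted p under 0.05. Of the markers of cells that carry these receptors, 4 of 9 for B cells, 6 of 11 for T and NK cells, 2 of 7 for dendritic cells and 4 of 8 for eosinophils, basophils and mast cells were under the limit on all 6 arrays, beside 36.1% of all genes. Of 8 progenitor markers 7 had a higher mean in HoxA9AA/Meis1, with a median difference of 0.50, and 0 passed the test.

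Receptors and ligands were matched in 13 textbook pairings. In 5 of them, those of Ccr1, Ccr2, Ccr7, Cxcr3 and Cxcr4, the receptor and at least 1 ligand were above background on all 6 arrays. For Ccr1 this held for 5 of 5 ligands, for Ccr2 for 1 of 3 and for Cxcr3 for 1 of 3. For Cx3cr1 the receptor alone was, and Cxcr2 and Cxcr6 were above it on 5 arrays each. The remaining 5 receptors, Ccr3, Ccr6, Ccr9, Cxcr5 and Xcr1, were above it on 0 arrays.

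Many members lie next to each other in the genome, and neighbours did not always share a pattern. In the plot of gene clusters, starts less than 1 Mb apart were joined, using the RefSeq gene order of assembly GRCm38.p6. In the block Ccl2, Ccl7, Ccl12 and Ccl8 on chromosome 11, 4 of 4 members had a lower mean in HoxA9AA/Meis1 and HoxA9wt replicate 3 was highest for 3. Of these, Ccl12 and Ccl8 were under the limit on all 6 arrays. In the block Ccl5, Ccl9, Ccl6, Ccl3 and Ccl4 on the same chromosome, 3 of 5 had a lower mean, with Ccl6 at −1.53 beside Ccl9 at −0.26 and Ccl3 at 0.16. In the chromosome 5 block, Ppbp and Pf4 stood high in HoxA9wt replicate 2 and Cxcl2 in HoxA9wt replicate 3, while Cxcl5, Cxcl3 and Cxcl1 spanned at most 0.40 over the 6 mice. Of the chromosome 9 receptors Ccr9, Cxcr6, Xcr1, Ccr1, Ccr3 and Ccr2, 6 of 6 had a lower mean. However, Ccr9, Xcr1 and Ccr3 were under the limit on all 6 arrays. Ccr3, which lies between Ccr1 and Ccr2, differed by −0.03.

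**Figure D4:**
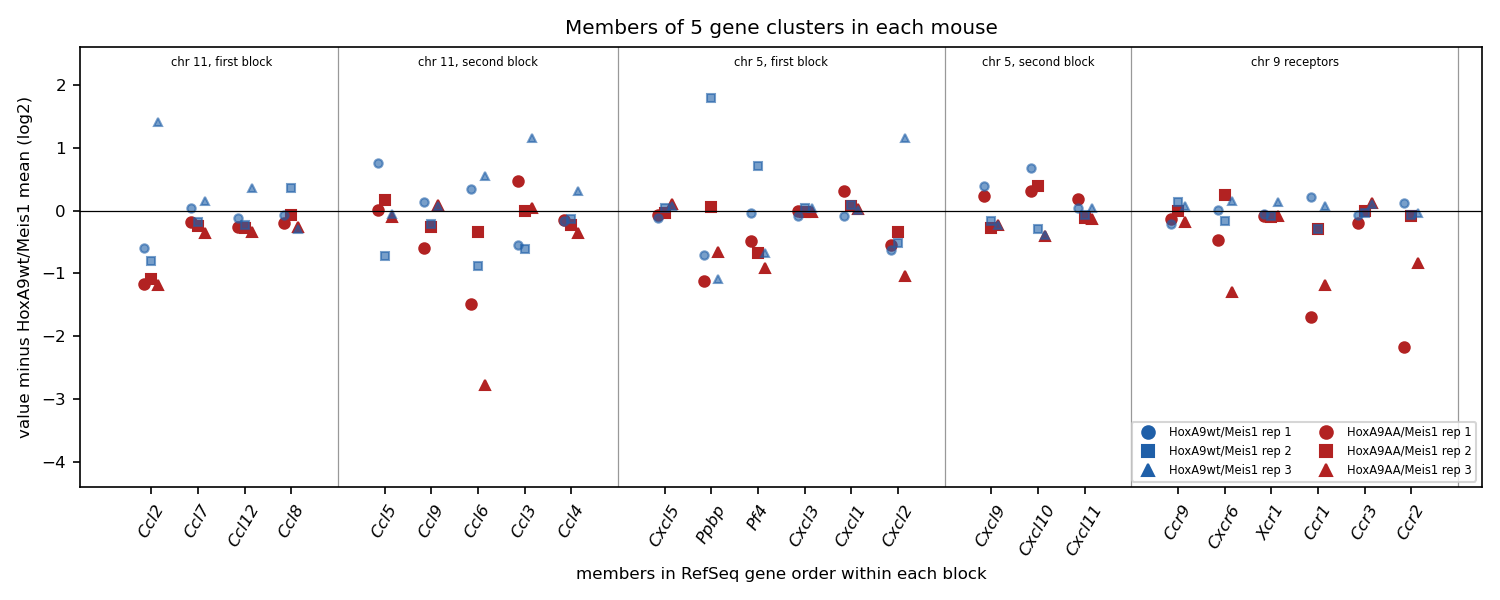
Value of each mouse minus the HoxA9wt/Meis1 mean (log2, vertical axis) for members in 5 clusters on chromosomes 11, 5 and 9, in RefSeq gene order (horizontal axis, not to genomic scale); blue symbols are HoxA9wt mice and red symbols HoxA9AA mice. Ccr1 and Ccr2 are low in HoxA9AA replicates 1 and 3 on both sides of Ccr3, which lies near the HoxA9wt mean in every mouse, and Ccl6 reaches −2.77 in HoxA9AA replicate 3 beside a steady Ccl9.

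Other genes of the chemokine pathway were taken from lists of further family members, signalling genes, inducers and proteases, and 0 of them passed the test (0% of all genes did). Of 8 further ligands 5 had a higher and 1 a lower mean, and of 9 further receptors 4 and 5. Of 28 genes that carry the receptor signal, 17 had a higher and 10 a lower mean, with a median difference of 0.02. Pik3r5, the regulatory subunit of the lipid kinase that acts behind chemokine receptors, measured 9.28, 9.0 and 9.22 in the HoxA9wt mice and 7.87, 8.66 and 8.12 in the HoxA9AA mice. Its groups did not overlap, and the difference was −0.95 ± 0.21 (SE; limma, unadjusted p = 0.00316, adjusted p = 0.731).

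Plcb2, the phospholipase of the same receptors, measured 8.74, 8.87 and 8.22 against 9.29, 9.12 and 9.89, again without overlap but towards higher values (difference 0.82 ± 0.25, SE). Grk5, a kinase that silences active receptors, measured 9.38, 8.77 and 9.41 against 7.53, 9.08 and 6.94, and was low in the same HoxA9AA mice as Ccr1. Cdc42, a GTPase of cell polarity, had a difference of −0.32 ± 0.13 (SE). The adjusted p was 0.731 for Plcb2, Grk5 and Cdc42 alike (limma).

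Of 8 other chemoattractant receptors 6 had a lower mean, with a median difference of −0.10. C3ar1 and C5ar1, the receptors for complement fragments on myeloid cells, measured 9.43, 7.55 and 8.79 against 6.99, 8.36 and 6.67, and 9.11, 8.44 and 8.99 against 8.45, 8.92 and 6.84. Their differences were −1.25 ± 0.60 and −0.78 ± 0.53 (SE; limma, adjusted p = 0.735 and 0.820). Of 8 proteases that trim chemokines 6 had a higher mean, with a median difference of 0.15 that was −0.02 without HoxA9AA replicate 1. Dpp4, which inactivates Cxcl12 and other chemokines, measured 10.22, 10.25 and 11.06 against 8.34, 11.23 and 7.76, so that it too was low in HoxA9AA replicates 1 and 3. Mmp9, a gelatinase of neutrophils that is also on the neutrophil list, measured 7.60, 7.34 and 6.46 against 7.87, 8.36 and 7.68 without overlap (difference 0.84 ± 0.32, SE; limma, adjusted p = 0.731).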

How the data were processed

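The deposited values are log2 expression values per probe set, made by the authors with RMA in the oligo package, per the submitters' processing notes; no versions are given there. RMA corrects background and normalizes across arrays, so that absolute RNA amounts are not kept. Arrays carry no read depth, and 3 mice per group limit the precision. The labels call the 6 arrays biological replicates. Of 35556 probe sets 21789 had 1 gene symbol, 1621 several and 12146 none; those with 1 symbol gave 19938 genes, with the brightest probe set kept for the 999 genes that had several. Group differences were fitted by lmFit and eBayes of limma 3.58.1 (R 4.3.3; two-sided), and p-values were adjusted by Benjamini-Hochberg across the 19938 genes, with 0.05 as the threshold. The script was tested on simulated data. Averages over a marker list are means of each gene's value minus its HoxA9wt mean. The members and lists were chosen with earlier results of these data known. Members above background on all 3 arrays of a group were given in full by rule (20 genes); Ccl4, Ccl24, Cxcl2, Cxcl9, Pf4 and Cx3cl1 were added after their values were seen. Genes outside the 43 were named from the lists, up to 4 a list by smallest unadjusted p, or as markers or a paired ligand that bear on a member. The alternatives were a replicate block, each array left out, a filter on dim genes, the mean of probe sets, quantile normalization, median centring, other variance settings, array weights and other background limits.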

Additional observations from a re-analysis of the deposited data

How the results depend on the processing

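No member passed the adjusted threshold in any setting run for the 26 members above background on at least 1 array, where adjusted p-values lay between 0.0807 and 1. Leaving out 1 mouse gave 0 to 48 genes called (48 without HoxA9AA replicate 2, 1 without HoxA9wt replicate 3), 5 to 10 members lower and 0 to 3 higher without overlap, 17 to 18 members above background, and a median difference of the members from −0.12 to −0.028 (the latter without HoxA9wt replicate 3). With fewer mice, groups part more easily by construction. Quantile normalization and median centring each gave 1 higher member without overlap. The number of members above background on all 6 arrays was 10 at the 99th percentile of olfactory receptor genes and 28 at the 95th percentile of vomeronasal receptor genes. With the replicate block, 0 genes and 0 members were called and the median difference was −0.09. The unadjusted p with the block was 0.00448 for Cxcr2, 0.0389 for Pf4 and 0.0351 for Ccr1 (limma, adjusted p = 0.891 for each). Without the block it was 0.129, 0.0831 and 0.0208 (limma). Over all genes, the deviations of same-numbered mice had correlations of −0.208, −0.103 and −0.013. With 3 mice per group these cannot tell whether same-numbered mice shared a batch, which the labels do not say. Median centring gave 1027 genes higher and 392 lower at an unadjusted p under 0.05, against 828 and 516. The sign turned for Ccl25 with the mean of its probe sets (0.0083), and with array weights for Ccl3 (−0.21) and Cx3cl1 (−0.0091). Leaving out 1 mouse turned the sign of 12 members, with ranges of −0.14 to 0.74 for Ccl3, −0.34 to 0.40 for Ccl5, −1.11 to 0.12 for Ccl24, −0.25 to 0.10 for Cxcl9, −0.093 to 0.44 for Cxcl10, −0.19 to 0.17 for Cxcl12, −1.11 to 0.32 for Ppbp, −0.028 to 0.10 for Cx3cl1, −0.19 to 0.023 for Ccr7, −0.27 to 0.15 for Ccrl2, −0.12 to 0.0067 for Cxcr3 and −0.018 to 0.13 for Cxcr4. The cause was not tested. Signal close to background limits Ccl7, Cxcl9, Cx3cl1, Ccl4 and the 17 members under the limit. It also limits, among others, Ccl25, Cxcl1, Cxcr3, Ccrl2, Cxcl10 and the values of Ccl2 outside HoxA9wt replicate 3.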
